A study of Mus musculus with 8 samples.

Results

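The genes described here were 10 members of the fibroblast growth factor (FGF) pathway of the mouse forelimb: the ligands *Fgf8*, *Fgf10* and *Fgf18*, the receptors *Fgfr1*, *Fgfr2* and *Fgfr3*, and the feedback and target genes *Dusp6*, *Spry2*, *Spry4* and *Etv4*. They were chosen by name, 10 of 28001 genes in the tables, not by a threshold on their values. Their unique molecular identifiers (UMIs, each counting 1 captured mRNA molecule) were read in cells with at least 3000 UMIs of which no more than 10% were mitochondrial, 53085 of 57469 barcodes in 8 libraries. A further 61 genes of the pathway, from a list ordered by role, were read beside them.

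Single-cell RNA-seq had been performed on embryonic forelimbs of C57BL/6J mice carrying a tamoxifen-inducible Cre at *Hic1* and a Cre-dependent reporter (Hic1CreERT2/CreERT2;Rosa26LSLtdTomato/tdTomato), whose dams were given 7.5 mg of tamoxifen at embryonic day (E) 10, so that the cells in which *Hic1* was active around that time, and their progeny, carry tdTomato. Sorted tdTomato+ cells made up 1 library each at E11.5, E12.5, E13.5 and E14.5 and 2 at E16.5, proximal (distal upper arm, elbow and proximal forearm) and distal (distal forearm and paw). Whole E11.5 limbs, labelled as both Hic1;tdTomato+ and Hic1;tdTomato- cells, gave whole 1 and whole 2. Forelimbs of several male and female embryos were pooled, and lineage-positive (blood and endothelial) cells were gated out, in the whole limbs too. Nothing says that whole 1 and whole 2 came from separate embryos. The p-values thus measure the spread between these libraries or, for position, between their distal-to-proximal ratios. Dissociation changed from Dispase at E11.5 and E12.5 to Collagenase, Pronase and DNase from E13.5, and the 10x kit from v2 up to E13.5 to v3 from E14.5, so that these changes and the stage cannot be told apart in the steps they fall in.

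The 8 libraries kept between 3165 and 11109 cells, with median depths from 6788 to 18473 UMIs per cell and totals from 31500092 to 234893903 UMIs in the kept cells. tdTomato was at 427.4 to 1341 CPM (counts per 1000000 UMIs) in the sorted libraries and at 3.88 and 4.21 CPM in whole 1 and whole 2, and *Prrx1*, a limb mesenchyme gene, was at 201 to 647 CPM in all 8. Libraries shared at most 1.04% of the barcodes of the smaller one. Unless stated otherwise, levels below are sums over the mesenchymal cells, that is, all cells outside clusters named epithelial-, endothelial-, myogenic-, immune-, erythroid- or glial-like from fixed markers. In such sums a lower level can be fewer expressing cells or less RNA per cell, and these cannot be told apart. The intervals given cover counting error only.

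Most FGFs are secreted ligands that bind tyrosine kinase receptors together with heparan sulphate and activate the RAS-MAPK cascade. In the limb bud, FGF8 from the apical ectodermal ridge and FGF10 from the mesenchyme beneath it sustain each other and outgrowth, and later FGF18 and FGFR3 act on cartilage growth. The cascade switches on its own brakes, among them the ERK phosphatase DUSP6 and the Sprouty proteins, and transcription factors of the PEA3 group such as ETV4, so that these transcripts are widely used as readouts of FGF signalling.

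**Figure D1:**
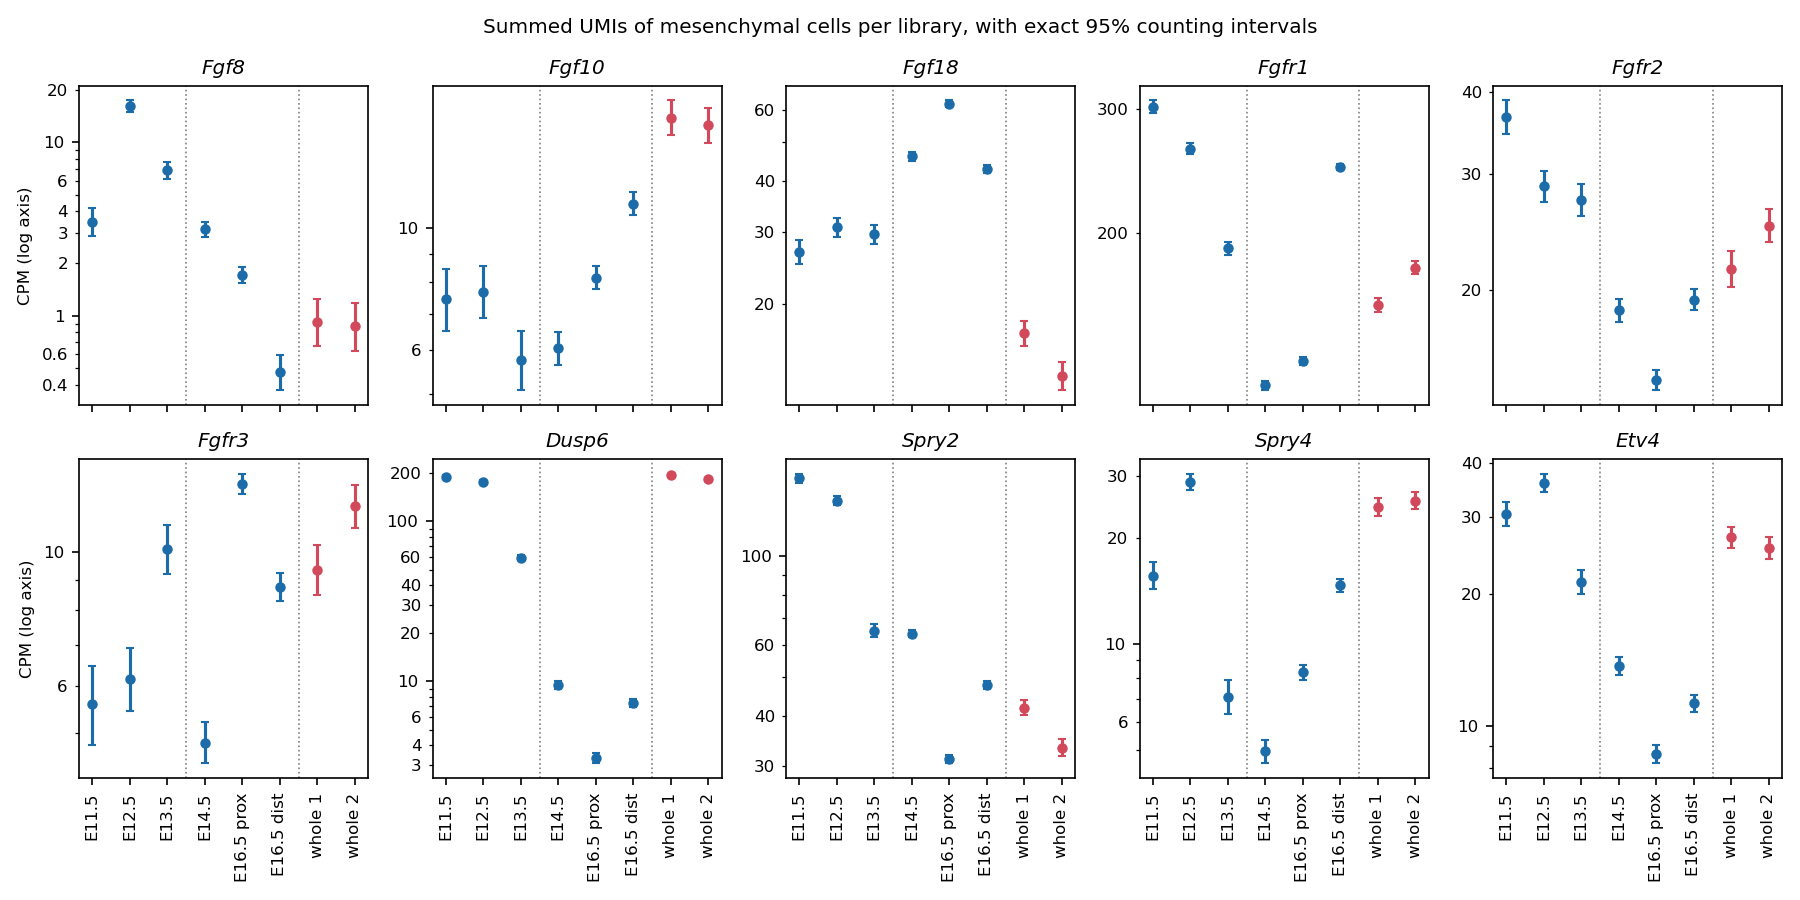
Level of each of the 10 genes in the mesenchymal cells of each library (CPM, logarithmic axis, 1 panel per gene). Blue points are sorted libraries, red points are whole E11.5 limbs, bars are exact 95% Poisson intervals, and dotted lines part the v2 libraries, the v3 libraries and the whole limbs. *Dusp6* runs from 189 CPM at E11.5 to 3.33 CPM at E16.5 proximal, whereas *Fgf18* runs from 26.8 to 62.0 CPM.

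*Fgf8* (chr19:45736798-45742915, minus strand, GRCm38), the ridge ligand, was low in the mesenchyme of every library and highest in the sorted cells at E12.5. It was at 3.49, 16.2, 6.92 and 3.15 CPM in sorted cells from E11.5 to E14.5, at 1.71 and 0.472 CPM in the proximal and distal limb at E16.5, and at 0.924 and 0.870 CPM in whole 1 and whole 2. The E12.5 library stood above its neighbours on both sides. *Fgf8* was 4.65-fold higher at E12.5 than at E11.5 (exact 95% interval 3.80 to 5.74), then 2.35-fold lower at E13.5 (2.05 to 2.69) and 2.20-fold lower again at E14.5 (1.89 to 2.55). Each step joins single libraries, so no test over replicates was possible.

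In the whole limbs the *Fgf8* level was highest in the few epithelial-like cells. These clusters held 16 and 21 cells in whole 1 and whole 2, with *Fgf8* at 427 CPM (interval 321.5 to 555.5) and 665 CPM (548 to 799). Of these, 4 and 6 cells held a *Fgf8* UMI, up to 23 and 57 UMIs in 1 cell, and all of those cells also held *Sp6* or *Sp8*, transcription factor genes of the apical ridge. However, 10 of the 16 and 15 of the 21 epithelial-like cells held *Sp6* or *Sp8*. At E16.5 proximal 346 of 936 epithelial-like cells did, 2 of them with *Fgf8*. The overlap alone therefore does not name the *Fgf8* cells as ridge cells. Myogenic-like cells held 5.96 and 4.49 CPM, nearer to the mesenchyme than to the epithelial-like cells.

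In the sorted E12.5 library 379 of 4714 cells (8.04%) held 718 *Fgf8* UMIs. Only 2 of its cells held a UMI of *Sp6* or *Sp8*, neither of them with *Fgf8*, so that these ridge transcripts were nearly absent from the library and their overlap with *Fgf8* could not be read. The epithelial marker genes *Krt5* and *Krt14* were at 0 in that library, and the whole epithelial list summed to 76.19 CPM there, against 39.97 to 87.91 CPM in the mesenchyme of all 8 libraries. A cluster of 211 cells led by *Sim2*, *Cntn1*, *Cpne8* and *Crym* held *Fgf8* at 100.5 CPM (87.6 to 114.8), and a mitotic-like cluster held 38.2 CPM. After thinning every cell to 3000 UMIs, 18.5% of the first cluster (median depth before thinning 9961 UMIs) and 0.556% of the chondrocyte-like cells (6917.5 UMIs) held a *Fgf8* UMI. *Fgf8* was thus far from even across the sorted cells of this stage, and its cluster carried no cell type name from the fixed markers.

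**Figure D2:**
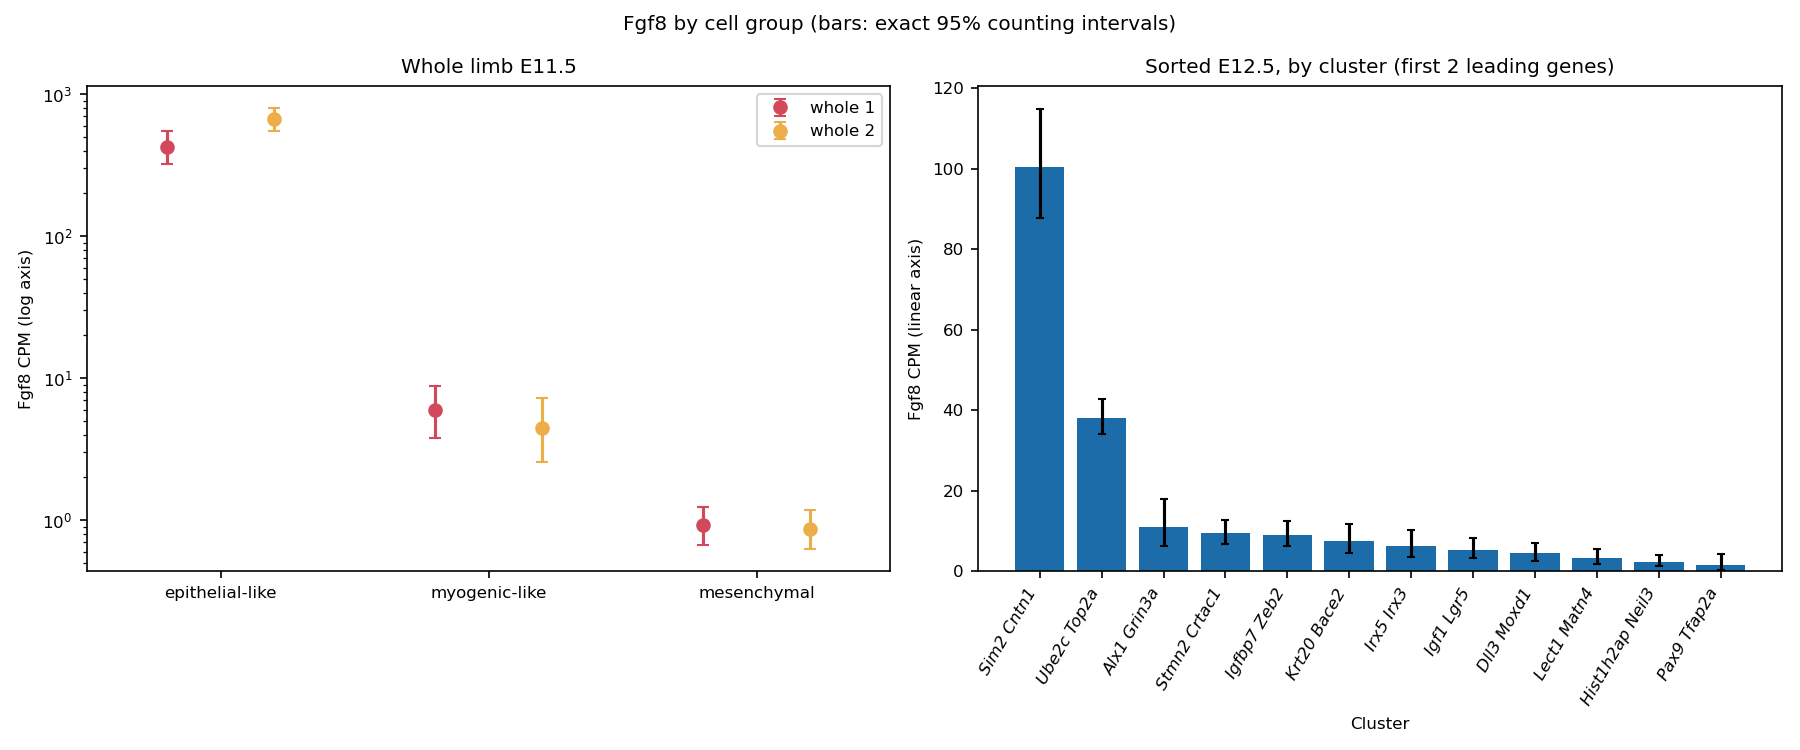
*Fgf8* level by cell group. Left, epithelial-like, myogenic-like and mesenchymal cells of whole 1 and whole 2 (CPM, logarithmic axis, exact 95% Poisson intervals). Right, clusters of the sorted E12.5 library, each named by its first 2 leading genes (CPM, bars from 0). The epithelial-like cells sit at 427 and 665 CPM, and at E12.5 the *Sim2* and *Cntn1* cluster stands at 100.5 CPM.

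At E16.5 the highest *Fgf8* level among named classes was in tenocyte-like (tendon) cells, although all levels were low. At E14.5 tenocyte-like (6.95 CPM) and mitotic-like cells (6.01 CPM) lay close together, and their order turned at a finer clustering, of resolution 2 (6.66 and 6.98 CPM). Tenocyte-like cells held 12.8 CPM (10.8 to 15.0) in the proximal and 4.23 CPM (2.99 to 5.80) in the distal limb at E16.5. Dermal fibroblast-like cells held 0.213 and 0.0829 CPM in the last pair of libraries. At 3000 UMIs, 4.56% of proximal tenocyte-like cells (median depth 15005.5 UMIs) and 0 of 1128 proximal dermal fibroblast-like cells (15048.5 UMIs), which allows a share of up to 0.266%, held a *Fgf8* UMI; this limits cells with a UMI, not cells expressing the gene. The intervals of these classes did not overlap in either segment.

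*Fgf10* (chr13:118669791-118792115, plus strand), the mesenchymal ligand that signals to the epithelium, was low in the sorted cells at every stage. It was at 7.43, 7.67, 5.75 and 6.05 CPM from E11.5 to E14.5 and at 8.14 and 11.1 CPM in the proximal and distal limb at E16.5. Neither the step from E11.5 to E12.5 (1.03-fold, 0.871 to 1.22) nor that from E13.5 to E14.5 (1.05-fold, 0.914 to 1.21) was larger than the counting error, whereas the level was 1.33-fold lower at E13.5 than at E12.5 (1.13 to 1.57) and 1.34-fold higher at E16.5 proximal than at E14.5 (1.23 to 1.47). Whole 1 and whole 2 held 15.9 and 15.4 CPM, above all 6 sorted libraries.

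At E16.5 *Fgf10* was higher in fibroblast and joint groups than in tendon and epithelium. Joint-like cells held 17.7 and 13.5 CPM in the proximal and distal library. A cluster of 1586 and 136 cells led by *Sfrp4*, *Prss12* and *Wnt2* held 19.8 and 30.9 CPM, and a cluster of 91 and 68 dermal fibroblast-like cells led by *Gal*, *Sox2*, *Sox18* and *Foxd1* held 70.3 and 61.0 CPM. The *Sfrp4* cluster had 3 raised markers of the fibrogenic progenitor list but shared its first 3 genes with the leading genes of a fibroblast-like cluster of E14.5, so it is called here by those genes. Tenocyte-like cells held 1.19 and 0.779 CPM. Epithelial-like cells, which respond to this ligand, held 0.585 and 0.817 CPM, and 0 of the 936 proximal ones held a UMI at 3000 UMIs.

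*Fgf18* (chr11:33117430-33147400, minus strand), a ligand of the developing skeleton, was the one of the 3 ligands whose level was more than 2-fold higher at E16.5 proximal than at E11.5. It was at 26.8, 30.9, 29.7 and 46.2 CPM in sorted cells from E11.5 to E14.5, at 62.0 CPM in the proximal and 42.9 CPM in the distal limb at E16.5, and at 17.0 and 13.4 CPM in whole 1 and whole 2. The E12.5 and E13.5 libraries did not differ beyond counting error (0.963-fold, 0.892 to 1.04). At E16.5 proximal the level was 2.31-fold that at E11.5 (2.16 to 2.48).

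*Fgf18* was higher in the *Sfrp4*, *Prss12* and *Wnt2* cluster and the perichondrial-like class than in the chondrocyte- and dermal fibroblast-like ones. At E16.5 cells of that cluster held 138.1 CPM in the proximal and 88.5 CPM in the distal limb, with perichondrial-like cells at 75.3 and 80.7 CPM. Chondrocyte-like cells held 12.8 and 26.4 CPM, and dermal fibroblast-like cells 14.4 and 7.50 CPM. At 3000 UMIs, 31.2% of the cluster's proximal cells (median depth 17080 UMIs) and 0.748% of epithelial-like cells (37772 UMIs) held a *Fgf18* UMI. Fibroblast-like cells held 59.6 and 77.5 CPM at E16.5 and 94.7 CPM at E14.5, where chondrocyte-like cells held 8.06 CPM.

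*Fgfr1* (chr8:25513654-25575718, plus strand), the receptor of limb mesenchyme, was lower at each sorted stage up to E14.5 and higher in the distal than in the proximal E16.5 library. It was at 303, 264, 190 and 121 CPM from E11.5 to E14.5, at 131 and 248 CPM in the proximal and distal limb at E16.5, and at 158 and 178 CPM in whole 1 and whole 2. At E16.5 proximal it was 2.31-fold lower than at E11.5 (2.25 to 2.36). The E16.5 distal library held 1.89 times the proximal level, and lay close to E12.5.

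Up to E14.5 *Fgfr1* was highest, among named classes, in chondrocyte-like cells, with 354, 309, 231 and 166 CPM in the sorted libraries and 241 and 259 CPM in the whole limbs. Under other cell naming this order turned at 3 stages. With the finer clustering mitotic-like cells led at E11.5 (314.4 against 309.7 CPM), joint-like cells at E13.5 (241 against 221.5 CPM) and dermal fibroblast-like cells at E14.5 (178.6 against 166.1 CPM). With cells named singly by 3 markers joint-like cells led at E13.5 (294.6 CPM) and dermal fibroblast-like cells at E14.5 (183.4 against 153.2 CPM). In the main naming only chondrocyte- and mitotic-like classes took a name at E11.5 and E12.5. In the whole limbs only chondrocyte- and myogenic-like ones held 50 or more cells per library. At E16.5 dermal fibroblast-like cells held the most, with 216 CPM in the proximal and 483 CPM in the distal limb. Different clusters made up that class, 1028 of 1128 cells coming from 1 cluster proximally and 1128 of 1469 from another distally. Chondrocyte-like cells followed with 181 and 327 CPM, again mostly from different clusters, and epithelial-like cells held 13.9 and 22.5 CPM.

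*Fgfr2* (chr7:130162451-133123350, minus strand), whose isoforms serve epithelium and skeletal precursors, was at 36.6, 28.7, 27.4 and 18.6 CPM from E11.5 to E14.5, at 14.6 and 19.4 CPM in the proximal and distal limb at E16.5, and at 21.6 and 25.1 CPM in whole 1 and whole 2. The level at E16.5 proximal was 2.51-fold below that at E11.5 (2.34 to 2.68), and the step from E12.5 to E13.5 was within counting error (0.953-fold, 0.880 to 1.03). Gene counts do not separate the isoforms. Within the chondrocyte-like class of the main naming the level did not follow the mesenchymal sum: it was 54.2, 77.4, 81.1 and 74.9 CPM from E11.5 to E14.5 and 61.7 and 58.3 CPM at E16.5. Proximal perichondrial-like cells (93.5 CPM) and a basal epithelial cluster (91.9 CPM) held more. With cells named singly by 3 markers, chondrocyte-like cells held 70.87, 68.21 and 58.34 CPM at E11.5, E12.5 and E14.5. They held 55.95 and 69.39 CPM in the proximal and distal limb at E16.5. The lower level at E11.5 than at E12.5 thus depended on which cells took the name.

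*Fgfr3* (chr5:33721674-33737068, plus strand), the receptor of growth plate cartilage, was highest, among named classes, in chondrocyte-like cells from E12.5 on and in both whole limbs. There were exceptions under other cell naming, and at E12.5 and in the whole limbs few classes were named (given for *Fgfr1*). Over all mesenchymal cells *Fgfr3* was at 5.59, 6.15, 10.1 and 4.83 CPM from E11.5 to E14.5, at 12.98 and 8.74 CPM in the proximal and distal limb at E16.5, and at 9.34 and 11.9 CPM in the whole limbs. In the chondrocyte-like cells it was at 5.84, 20.8, 47.1 and 51.0 CPM over the same stages and at 110 and 70.0 CPM at E16.5, so that E13.5 and E14.5 lay close together and both E16.5 libraries above them. The E11.5 value depended on which cells took the name, at 43.7 CPM with the finer clustering and 20.5 CPM with cells named singly by 3 markers, when chondrocyte-like cells were highest there too. With single cells perichondrial-like ones (38.8 against 32.2 CPM) were highest at E13.5. With the finer clustering fewer than 50 cells of the distal E16.5 library took the chondrocyte-like name, too few for a level. Proximal tenocyte-like cells held 1.62 CPM. At 3000 UMIs, 23.8% of proximal chondrocyte-like cells (median depth 17326.5 UMIs) and 0.414% of tenocyte-like cells (15005.5 UMIs) held a *Fgfr3* UMI. In the sum over the mesenchyme *Fgfr3* was 2.69-fold higher at E16.5 proximal than at E14.5 (2.46 to 2.94), 2.09-fold lower at E14.5 than at E13.5 (1.85 to 2.36), and 2.32-fold higher at E16.5 proximal than at E11.5 (1.99 to 2.72).

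**Figure D3:**
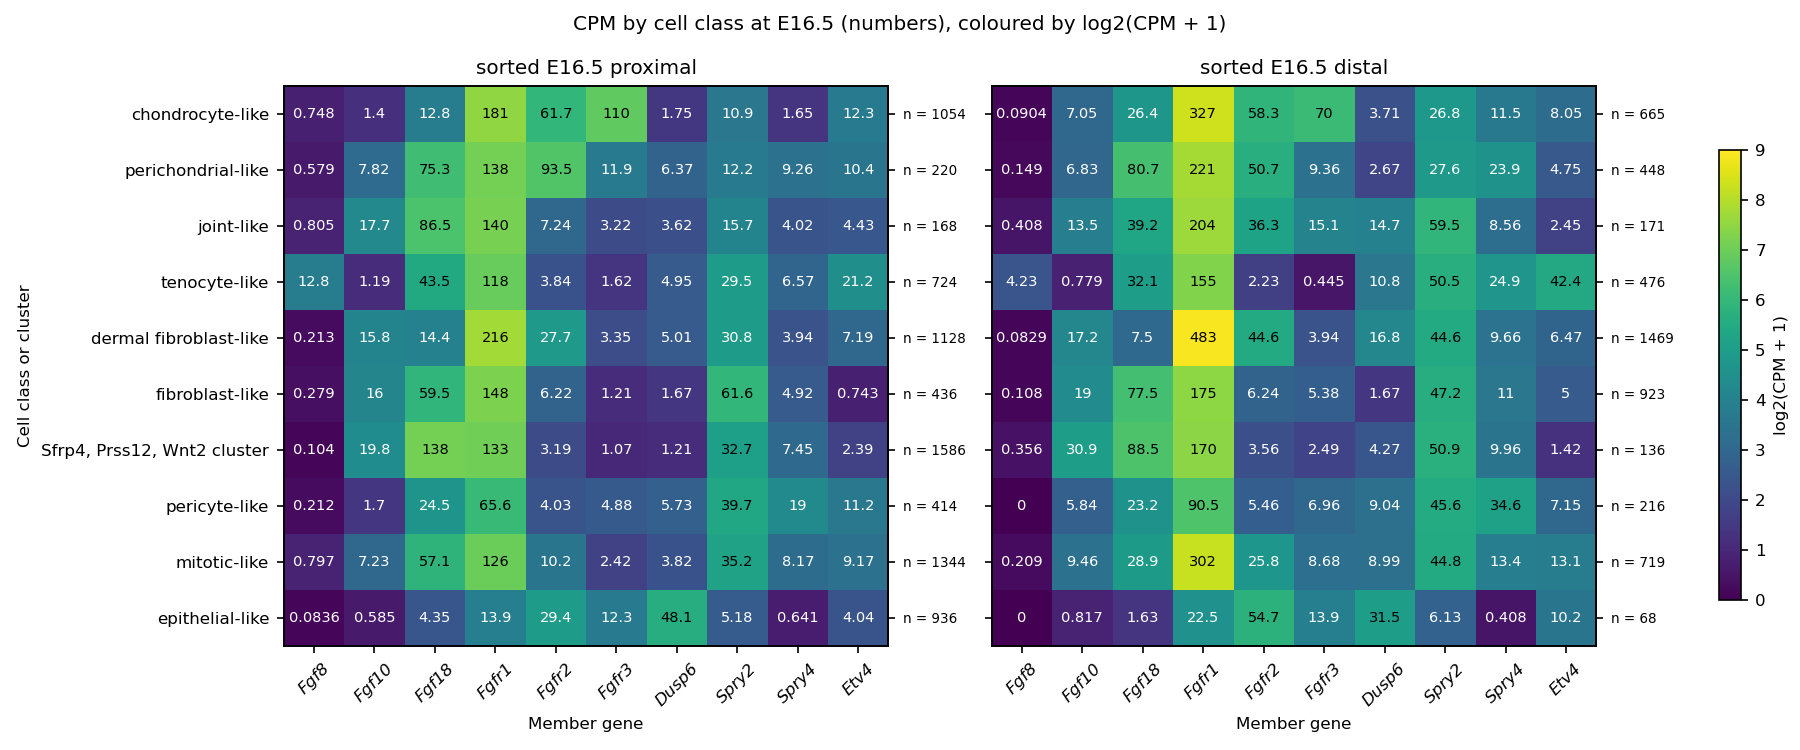
Levels of the 10 genes (columns, CPM) by cell class or cluster (rows, with the number of cells) in the proximal and distal E16.5 libraries. *Fgfr3* stands out in chondrocyte-like cells (110 and 70.0 CPM), *Fgf18* in the *Sfrp4*, *Prss12* and *Wnt2* cluster (138.1 and 88.5 CPM), *Dusp6* in epithelial-like cells (48.1 and 31.5 CPM) and *Etv4* in tenocyte-like cells (21.2 and 42.4 CPM).

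The feedback genes *Dusp6* (chr10:99263231-99267489, plus strand) and *Spry2* (chr14:105891947-105896819, minus strand) were both high at E11.5 and lower later, so their promoters are shown, 250 bases up to the start site 5′ to 3′ on the gene's strand (RefSeq, GRCm38.p6). The window of *Dusp6* is chr10:99262981-99263230 and that of *Spry2* is chr14:105896820-105897069. Capitals mark matches to 2 ETS-type motifs, the kind of site that ETV4 and its relatives bind, searched on both strands. The first motif is CGGAAG. The second is the same but for its first letter, AGGAAG, so no stretch matches both in the same place.
Dusp6: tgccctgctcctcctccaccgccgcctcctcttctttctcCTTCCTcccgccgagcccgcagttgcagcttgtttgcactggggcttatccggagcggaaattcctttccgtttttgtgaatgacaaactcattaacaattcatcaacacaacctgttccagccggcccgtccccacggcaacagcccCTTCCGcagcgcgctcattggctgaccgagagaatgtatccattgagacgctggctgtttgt
Spry2: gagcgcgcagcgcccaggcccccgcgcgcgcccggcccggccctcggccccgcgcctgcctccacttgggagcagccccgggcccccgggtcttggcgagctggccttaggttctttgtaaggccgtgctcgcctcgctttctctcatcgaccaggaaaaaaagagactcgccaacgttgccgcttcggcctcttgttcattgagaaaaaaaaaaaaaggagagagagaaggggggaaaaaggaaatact
The *Dusp6* window held 1 match to each motif and the *Spry2* window held none. Of 32851 promoters of the same length, 13.6% held the first motif, 29.5% the second and 39.2% either. Among the other members whose promoters were read, *Fgfr2* held 1 match to AGGAAG, and *Fgf10*, *Fgf18* and *Fgfr3* (2 promoters) held none. Promoters of *Fgf8*, *Fgfr1*, *Spry4* and *Etv4* were not read. A match is only a run of letters and says nothing of binding.

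*Dusp6*, the cytoplasmic phosphatase of ERK, differed most with stage among the 10 genes. It was at 189, 177, 59.4 and 9.55 CPM in sorted cells from E11.5 to E14.5, at 3.33 and 7.31 CPM in the proximal and distal limb at E16.5, and at 195 and 184 CPM in whole 1 and whole 2. Both E11.5 preparations and E12.5 lay together, and every later library lay far below them. It was 2.98-fold lower at E13.5 than at E12.5 (2.85 to 3.12), 6.22-fold lower at E14.5 than at E13.5 (5.81 to 6.65), and 56.8-fold lower at E16.5 proximal than at E11.5 (52.4 to 61.7). Over all filtered cells, epithelial-like ones included, that last pair was at 189 and 10.2 CPM, a smaller difference but still the largest over these stages among the 10 genes.

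The lower *Dusp6* level was seen within classes. Chondrocyte-like cells held 263, 238, 53.3 and 7.89 CPM from E11.5 to E14.5 and 1.75 and 3.71 CPM at E16.5, with 289 and 285 CPM in the whole limbs. Mitotic-like cells went from 215 to 191, 70.5 and 7.70 CPM, and to 3.82 and 8.99 CPM. By E14.5 the epithelial-like cells held the most among named classes, with 28.6 CPM there and 48.1 and 31.5 CPM in the proximal and distal library at E16.5. With cells named singly, dermal fibroblast-like ones lay above them at E14.5 (32.7 against 29.7 CPM). In the whole limbs, myogenic-like cells held 34.0 and 29.5 CPM against the chondrocyte-like values above. 2 directions at E16.5 depended on whether such cells were summed: over all cells passing the filters, epithelial-like ones included, the log2 ratio of E16.5 proximal to E14.5 was 0.03 and that of distal to proximal was -0.40, against a 2.87-fold lower (2.61 to 3.15) and a 2.20-fold higher level (1.99 to 2.42) in the mesenchyme.

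*Spry2*, an intracellular inhibitor of receptor tyrosine kinase signalling, was at 157, 138, 65.3 and 64.1 CPM from E11.5 to E14.5, at 31.2 and 47.7 CPM in the proximal and distal limb at E16.5, and at 41.9 and 33.3 CPM in whole 1 and whole 2. The whole limbs lay far below the sorted cells of the same stage, unlike *Dusp6*. The level was 2.11-fold lower at E13.5 than at E12.5 (2.02 to 2.21), did not differ beyond counting error between E13.5 and E14.5 (0.982-fold, 0.942 to 1.02), and was 5.03-fold lower at E16.5 proximal than at E11.5 (4.84 to 5.22). A cluster of 171 cells at E11.5 (5.4% of cells, median depth 4867 UMIs against 9253.5 in the rest) led by *Amt* and *Fn3krp* held *Spry2* at 533 CPM. The cluster with the same leading genes in the whole limbs held 223 and 191 CPM, also in cells of low depth (5241 and 5606 UMIs). Among E16.5 classes fibroblast-like cells held 61.6 CPM proximally and joint-like cells 59.6 CPM distally. Pericyte-like cells held the most with the finer clustering (70.5 and 80.8 CPM) and with cells named singly by 3 markers (54.9 and 74.5 CPM).

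*Spry4* (chr18:38586247-38601415, minus strand), a second Sprouty inhibitor, was at 15.7, 28.9, 7.09 and 4.96 CPM from E11.5 to E14.5, at 8.31 and 14.7 CPM in the proximal and distal limb at E16.5, and at 24.5 and 25.5 CPM in the whole limbs. Like *Fgf8* it was highest among the sorted libraries at E12.5, 1.84-fold above E11.5 (1.66 to 2.05) and 4.07-fold above E13.5 (3.60 to 4.61). At E16.5 pericyte-like (vessel wall) cells held the most, with 19.0 and 34.6 CPM, or 32.9 and 64.3 CPM with the finer clustering, whereas with a coarser one (resolution 0.5) perichondrial-like cells (37.7 CPM) were highest distally. Epithelial-like cells held 0.641 and 0.409 CPM there.

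*Etv4* (chr11:101769742-101785371, minus strand), a PEA3-group transcription factor, was at 30.6, 36.0, 21.3 and 13.7 CPM from E11.5 to E14.5, at 8.61 and 11.3 CPM in the proximal and distal limb at E16.5, and at 27.0 and 25.5 CPM in the whole limbs. It was 3.55-fold lower at E16.5 proximal than at E11.5 (3.28 to 3.84). At E11.5 a cluster led by *Mt1*, *Meis2* and *Gdnf* held 56.4 CPM. Later, tenocyte-like cells held 19.9 CPM at E13.5, 28.2 CPM at E14.5 and 21.2 and 42.4 CPM in the proximal and distal limb at E16.5, the highest named class from E14.5 on. A small cluster led by *Col22a1* and *Scx*, left unnamed because its mitotic markers were raised too, held 40.4 and 75.8 CPM at E16.5.

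Along the series that ends with the proximal E16.5 library, the feedback members that were called were lower at the later stage. With a gene called where it reached 5 CPM in the higher library and differed by 2-fold or more, *Dusp6* (3.19-fold lower, 3.05 to 3.34), *Spry2* (2.40-fold, 2.29 to 2.51) and *Spry4* (2.21-fold, 1.91 to 2.55) were lower at E13.5 than at E11.5 and no member was higher, where 4.17% of 10454 genes were lower and 6.03% higher. From E11.5 to E12.5 only *Fgf8* was higher and no member was lower (2.99% and 1.33% of genes), and from E12.5 to E13.5 *Fgf8*, *Dusp6*, *Spry2* and *Spry4* were lower and none higher (1.89% and 2.19%). From E13.5 to E14.5 *Fgf8*, *Fgfr3* and *Dusp6* were lower and none higher (6.62% and 5.01%). From E14.5 to E16.5 proximal, *Fgfr3* was higher, and *Dusp6* and *Spry2* (2.06-fold, 1.99 to 2.13) were lower, of 9 members at 5 CPM (5.83% and 6.84%). With both E16.5 segments summed, that step gave a higher *Spry4* (log2 ratio 1.16) and *Fgfr3* (1.20), and *Dusp6* (-0.91) and *Spry2* (-0.74) were no longer 2-fold lower. The median log2 ratio of the members was -0.47 from E11.5 to E13.5, against -0.09 for all genes at 5 CPM.

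Between E11.5 and E16.5 proximal 2 members were higher (*Fgf18*, *Fgfr3*) and 5 lower (*Fgfr1*, *Fgfr2*, *Dusp6*, *Spry2*, *Etv4*), where 13.7% of 10732 genes were higher and 29.6% lower. The median was -1.21 for the members and -0.48 for all genes. Median-of-ratios scaling raises every log2 ratio of this comparison by 0.38. With it *Fgfr1* (-0.82) and *Fgfr2* (-0.94) were no longer 2-fold lower, and the share of all called genes that were higher went from 31.6% to 52.9%. The corresponding shares were 46% and 62.9% from E14.5 to E16.5 proximal and 63.7% and 50.2% between the E16.5 segments. With both E16.5 segments summed, neither *Fgf18* nor *Fgfr3* stayed 2-fold higher than at E11.5. Over all cells, or among *Meis* cells alone, not both of them did. A list of 9 immediate early genes, which dissociation can induce, summed to 2284, 1952, 1479, 995.6, 1881 and 2282 CPM over the 6 sorted libraries while the 4 feedback members summed to 392.2, 379.5, 153, 92.32, 51.41 and 80.9 CPM, and both were lower at E13.5 and E14.5 than at E11.5. The immediate early genes moved apart between E11.5 and E16.5 (proximal and distal): *Ier2* went from 772.5 to 162.7 and 150.1 CPM and *Egr1* from 214.7 to 38.5 and 161.1 CPM, while *Fosb* went from 28.4 to 152 and 274.3 CPM and *Atf3* from 46.4 to 142.1 and 178.4 CPM. Their part in the feedback members' levels was not tested.

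The other pathway genes of the list were read in the same way from E11.5 to E16.5 proximal, where 13.7% of all genes were higher and 29.6% lower. Of 11 further feedback and target genes 10 reached 5 CPM, and 4 were lower and 0 higher: *Dusp4* (20.7 to 1.53 CPM), *Dusp5* (30.6 to 5.33 CPM), *Etv5* (55.1 to 10.7 CPM), the PEA3-group partner of *Etv4*, and *Phlda1* (473 to 92.6 CPM). Of 19 genes listed as ligands, the intracellular *Fgf11* to *Fgf14* among them, 5 reached 5 CPM. *Fgf2* (1.24 to 15.7 CPM), *Fgf7* (2.64 to 22.0 CPM) and *Fgf21* were higher and *Fgf9* (17.4 to 1.45 CPM) was lower. Among co-receptors *Flrt1* was higher and *Flrt3* lower. Of 8 modulators at 5 CPM *Sulf1* (18.4 to 83.9 CPM), a heparan sulphate sulphatase, was higher.

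Among members at 5 CPM, the E16.5 distal limb differed from the proximal one in 1 by 2-fold or more. *Dusp6* was 2.20-fold higher distally (7.31 against 3.33 CPM), and no member at 5 CPM was 2-fold lower (over all filtered cells *Dusp6* turned, at a log2 ratio of -0.40, and *Fgfr1*, at 1.11, and *Spry4*, at 1.02, were the members 2-fold higher), where 4.5% of 10149 genes were higher and 2.56% lower. Short of that fold, *Fgfr1* (1.89-fold), *Spry4* (1.77-fold), *Spry2* (1.53-fold), *Fgf10* (1.36-fold), *Fgfr2* (1.32-fold) and *Etv4* (1.31-fold) were higher, and *Fgf18* (1.45-fold) and *Fgfr3* (1.49-fold) lower. *Fgf8*, under 5 CPM in both, was 3.63-fold lower distally. The segments were 1 library each, aligned with different versions of Cell Ranger, and a cluster led by muscle fibre genes held 2493 proximal and 113 distal cells; their part in these ratios was not tested. Of the rest of the list, *Fgf2* and *Fgf12*, *Flrt2* and *Fgfbp1* (2.48 to 26.6 CPM), a carrier of FGFs, were higher, *Fgf21* was lower, and 0 of 9 feedback genes differed by 2-fold.

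At E11.5 the sorted library was set against whole 1 and whole 2, which asks how Hic1-lineage cells differ from the rest of the limb mesenchyme. *Spry2* was the most different member, at 157 CPM in sorted cells against 41.9 and 33.3 CPM (log2 ratio 1.88 ± 0.09 SE, edgeR quasi-likelihood test, Benjamini-Hochberg adjusted p = 2.29e-88). *Fgf8* (1.77 ± 0.26, adjusted p = 1.99e-10), *Fgfr1* (0.66 ± 0.10, 1.44e-10), *Fgf18* (0.64 ± 0.13, 3.41e-06) and *Fgfr2* (0.47 ± 0.12, 0.000567) were also higher by edgeR. *Fgf10* (-1.26 ± 0.16, 1.74e-14), *Fgfr3* (-1.11 ± 0.17, 3.98e-10) and *Spry4* (-0.86 ± 0.13, 1.36e-09) were lower. *Dusp6* (-0.18, adjusted p = 0.109 by edgeR) and *Etv4* (0.03, 0.838) did not pass. Thus 5 of 10 members were higher and 3 lower, in a comparison where edgeR called 26.9% of 15066 genes higher and 26.6% lower, and the median log2 ratio was 0.25 over the members and 0.02 over all genes. The Sprouty genes went in opposite directions, *Spry2* higher and *Spry4* lower in the sorted cells.

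The design had 1 sorted library against 2, so that the spread is that between whole 1 and whole 2 and not between preparations of sorted cells, with 1 residual degree of freedom before the spread was shared across genes, and any difference in preparation cannot be told apart from the sort. The call on *Fgf8* held only for the mesenchyme: over all cells, with the epithelial-like cells in the whole limbs, the log2 ratio was 0.12 (edgeR adjusted p = 0.65), whereas the other alternatives gave at most 0.0258. That on *Fgfr2* was lost without cycling cells (0.20, edgeR adjusted p = 0.239, the highest over its alternatives), which made up 37.3% of the sorted and 55.3% and 54.9% of the whole limb cells, and without the most doublet-like cells (adjusted p = 0.0539). With no filter on low counts *Fgf18* (edgeR adjusted p = 0.0876), *Fgfr2* (0.115) and *Fgfr3* (0.0582) did not pass. Without the *Amt* clusters *Spry2* stayed at 2.03. Fewer sorted cells held a UMI of *Hoxa13* or *Hoxd13*, 1.71% against 22.1% and 20.5% in whole 1 and whole 2, and 16.4% against 22.2% and 24.3% held *Meis1* or *Meis2* and neither *Hox13* gene. Without the Hox13 cells *Etv4* passed at 0.28 (edgeR adjusted p = 0.0487), the lowest over its alternatives, which reached 0.983. Among thinned *Meis* cells alone, *Etv4* was at 43.0 CPM in sorted cells against 16.2 and 17.5 CPM in whole 1 and whole 2. *Dusp6* was at 168.9 against 125.8 and 123.9 CPM, and the counting intervals parted for both genes. *Fgf10* turned (10.3 against 4.43 and 6.96 CPM), with overlapping intervals. *Spry2* and *Fgfr1* stayed higher with intervals apart. *Fgf8* (6 UMIs in the sorted cells) stayed higher and *Fgfr3* lower, but their intervals overlapped those of both whole limbs. *Spry4* stayed lower, with an interval that overlapped that of whole 1. *Fgf18* and *Fgfr2* lay between the whole limbs. These differences were not tested.

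Of the rest of the list, 11 genes listed as ligands were tested and 5 were higher and 2 lower in sorted cells, to be read against the 26.9% and 26.6% of all genes. Among them *Fgf9* was at 17.4 CPM against 3.63 and 3.61 CPM (log2 ratio 2.08, edgeR adjusted p = 9.39e-39). Of 11 further feedback and target genes 4 were higher, among them *Spry1* at 43.1 against 15.3 and 16.5 CPM (1.25, 6.82e-23 by edgeR) and *Phlda1* (0.74), and 5 were lower, among them *Il17rd* (-0.68). *Spry1* thus lay on the same side as *Spry2*. Of 15 adaptors and kinases 1 was higher and 7 lower, of 5 receptors and co-receptors 0 and 2, and of 8 modulators 1 and 1.

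**Figure D4:**
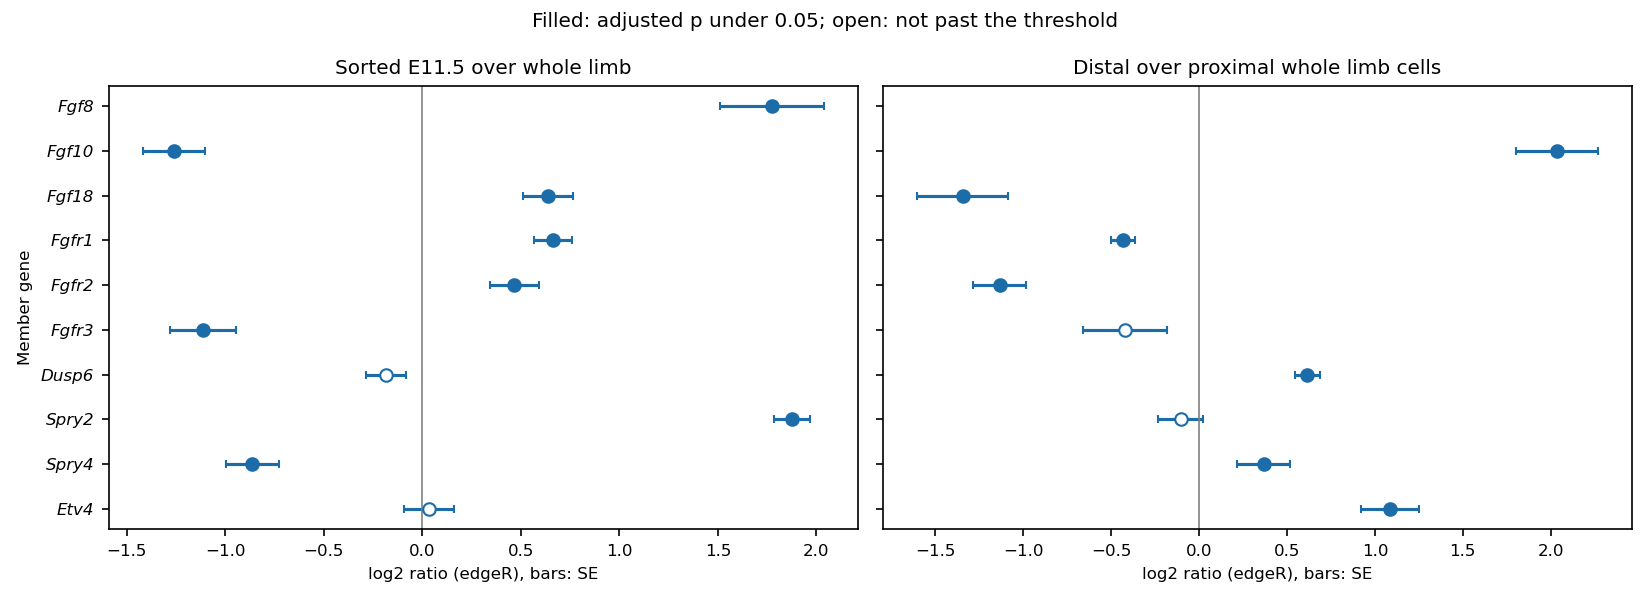
Log2 ratios of the members (points) with their standard errors (bars), left for sorted E11.5 cells against whole limb, right for distal against proximal whole limb cells. Filled points passed an adjusted p of 0.05 in edgeR. *Spry2* is highest on the left (1.88), and *Fgf10* on the right (2.04), where *Fgf18* is lowest (-1.34).

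Position within the whole limb was read from the cells' own transcripts: distal cells held a UMI of *Hoxa13* or *Hoxd13*, genes of the future paw, and proximal cells held *Meis1* or *Meis2* and neither *Hox13* gene, 1122 and 1129 cells in whole 1 and 1093 and 1294 in whole 2. All were thinned to 3000 UMIs, since distal cells were deeper (medians 10760.5 and 10134 UMIs against 7324 and 7328). Both groups came from the same 2 libraries, and the test held the library as a term. This left 1 residual degree of freedom before the spread was shared across genes. *Fgf10* showed the steepest difference. It was at 21.7 CPM in distal and 4.43 CPM in proximal cells of whole 1, and at 24.7 and 6.96 CPM in whole 2, so that the groups did not overlap (log2 ratio 2.04 ± 0.23 SE, edgeR adjusted p = 6.42e-17).

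*Etv4* was at 34.2 against 16.2 CPM and at 36.3 against 17.5 CPM (1.09 ± 0.16, edgeR adjusted p = 4.68e-10), and *Dusp6* at 199.9 against 125.8 and 176.6 against 123.9 CPM (0.62 ± 0.07, 3.87e-17 by edgeR). Both were higher distally in each whole limb library. *Spry4* was at 32.7 against 19.2 CPM in whole 1 but at 29.9 CPM in both groups of whole 2, and passed narrowly (0.37 ± 0.15, edgeR adjusted p = 0.047); the log2 ratio was 0.03 without whole 1, and DESeq2 gave an adjusted p of 0.708. *Spry2* was at 44.6 against 47.5 and 34.8 against 39.2 CPM and did not pass (-0.10 ± 0.13, edgeR adjusted p = 0.579), but its direction was not settled, at -0.28 without thinning (adjusted p = 0.00431 by edgeR) and 0.26 with clusters in place of cells (0.0308).

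The receptors and *Fgf18* lay the other way. *Fgfr2* was at 17.2 in distal against 46.4 CPM in proximal cells of whole 1 and at 21.0 against 39.4 CPM in whole 2 (-1.13 ± 0.15, edgeR adjusted p = 1.57e-12). *Fgfr1* was at 119 against 175 and 149 against 194 CPM (-0.43 ± 0.07, 5.07e-09 by edgeR), and *Fgf18* at 7.72 against 17.1 and 3.97 against 13.1 CPM (-1.34 ± 0.26, 1.87e-06 by edgeR, 0.112 by DESeq2). The distal cells were below the proximal ones in both whole limb libraries for all of these. *Fgfr3*, at 8.32 against 14.2 and 10.7 against 11.9 CPM, did not pass (-0.42 ± 0.24, edgeR adjusted p = 0.164). *Fgf8* held 1 and 3 UMIs in distal and 6 and 5 in proximal cells and was not tested.

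In the sorted cells of E11.5 and E12.5, split the same way, 5 of these members lay in the opposite order. There were 54 distal and 519 proximal cells at E11.5 and 153 and 449 at E12.5, in 1 library each, so no test was made. *Fgf10* was at 6.17 in distal against 10.3 CPM in proximal cells at E11.5 (1 and 16 UMIs) and at 4.36 against 13.4 CPM at E12.5 (2 and 18 UMIs). *Etv4* was at 6.17 against 43.0 and 30.5 against 40.8 CPM, and *Dusp6* at 117.3 against 168.9 and 161.2 against 175.9 CPM. These 3 were thus lower distally. *Fgfr1* was at 370.4 against 262 and 307.2 against 279.9 CPM, and *Fgf18* at 37.0 against 13.5 and 56.6 against 40.1 CPM, both higher distally. *Fgfr2* lay as in the whole limbs, at 18.5 against 41.1 and 15.3 against 28.2 CPM. The exact 95% intervals of distal and proximal cells overlapped for each of these 6 genes at both stages. Those of *Spry2* parted at E12.5, at 241.8 (198.9 to 291.2) against 109.1 CPM (92.2 to 128.3). At E11.5 its order was opposite (111.1 against 167 CPM). At E13.5 and E14.5 *Dusp6* was again lower distally, with intervals apart (42.1 against 82.15 and 4.13 against 15.0 CPM). At E14.5 *Spry2* was lower distally (57.6 against 82.9 CPM) and *Fgfr2* turned (33.5 against 19.6 CPM), both with intervals apart. The difference from the whole limbs was not tested.

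Of 9 members tested by position, 4 were higher distally and 3 lower, where edgeR called 18.1% of 10602 genes higher and 17.8% lower. The median log2 ratio was -0.10 over the members, against -0.003 over all genes. By the number of *Hox13* UMIs per cell, 1, 2, and 3 or more, *Fgf10* was at 15.5, 33.7 and 24.7 CPM in whole 1 and at 20.1, 27.6 and 39.2 CPM in whole 2. *Spry4* was at 26.8, 39.5 and 42.3 CPM in whole 1 and at 25.7, 32.4 and 43.6 CPM in whole 2, where the proximal cells (29.9 CPM) lay above those with 1. By value only whole 2 was thus ordered for *Fgf10*, but the counting intervals of its 3 bins overlapped (14.4 to 27.4, 17.5 to 41.4 and 23.2 to 62.0 CPM). In whole 1 the intervals of the bins with 2 and with 3 or more UMIs overlapped as well. For *Dusp6*, cells with UMIs of neither gene pair held 230.5 and 218.7 CPM, above both the distal and the proximal cells. From the rest of the list, *Il17rd* (0.73), *Dusp5* (0.50) and *Etv5* were higher distally and *Phlda1* (-0.83) lower, of 10 feedback genes tested. *Fgf9* was lower (-1.56, edgeR adjusted p = 0.00166, 0.396 by DESeq2), as were *Fgfrl1* (-1.05), *Flrt3* (-0.74), *Hs6st2* (-1.14) and *Fgfbp3*.

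**Figure D5:**
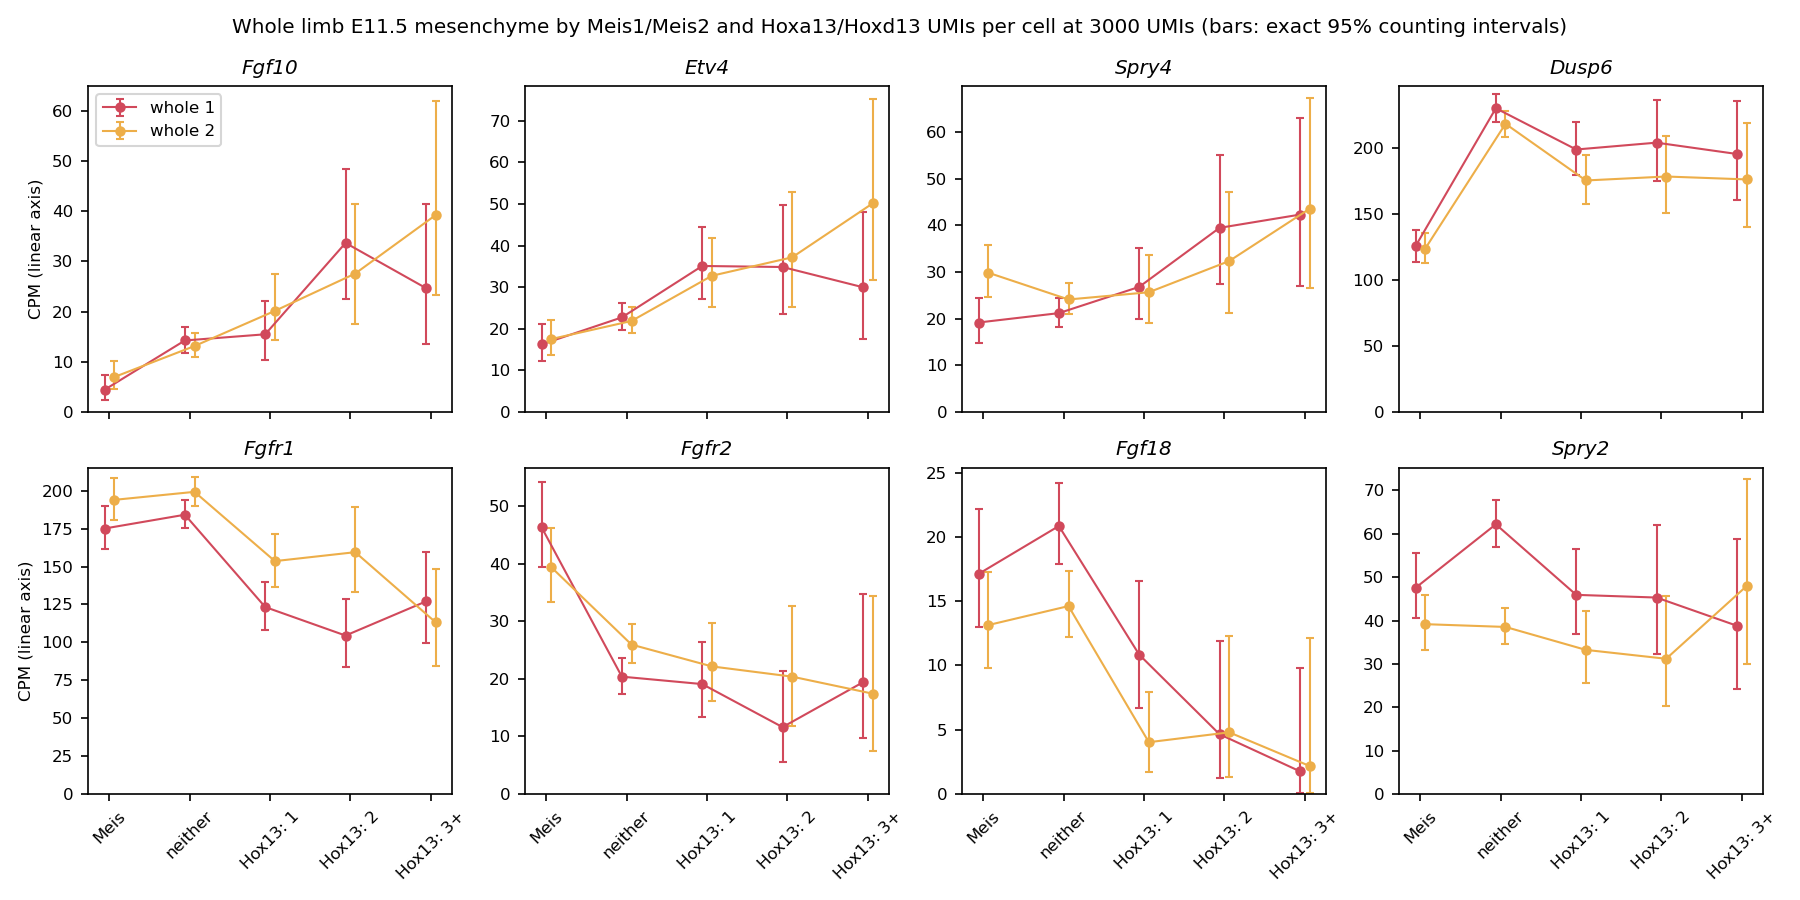
Levels of 8 members (CPM, linear axes from 0) across position bins of the whole limb mesenchymal cells: *Meis* cells, cells with neither gene pair, and cells with 1, 2, and 3 or more *Hox13* UMIs, for whole 1 and whole 2. *Fgf10* is higher and *Fgfr2* lower in every *Hox13* bin than in the *Meis* bin of both libraries, whereas *Dusp6* is highest in the bin with neither (230.5 and 218.7 CPM).

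The genes whose pattern over cell classes was most like each member were found from Pearson's r of log2(CPM + 1), centred per library, over 46 library-by-class sums from 8 libraries, among 9709 genes. In each library the cells of all unnamed clusters were pooled and entered as a class of their own. These sums share libraries and depth, so r is a description. *Fgfr1* was most like *Ctdsp2* (0.929), *Npr2* (0.925) and *Helz* (0.923), and *Fgf18* most like *Serp2* (0.893), *Igfbp4* (0.884) and *Kctd12* (0.866). *Fgfr3* was most like *Wwp2* (0.862), *2610035D17Rik* (0.862) and *Rab11fip4* (0.85), and *Fgfr2* had *Fgfr3* itself first (0.801), then *Ctdspl* (0.799) and *Xrcc4* (0.789). For *Fgf8* these were *Rragd* (0.818), *Crym* (0.788) and *Calca* (0.754), *Crym* being a leading gene of the E12.5 cluster above. The 3 genes were *Auh* (0.815), *S100a13* (0.812) and *Osr2* (0.807) for *Fgf10*, *Lamc1* (0.831), *Rbms3* (0.831) and *Itih5* (0.828) for *Spry2*, and *Ssbp4* (0.826), *Trim56* (0.823) and *Agbl3* (0.821) for *Spry4*. *Dusp6* (*Abhd6* 0.801, *Lypla1* 0.765, *Mfsd1* 0.76) and *Etv4* (*Srsf9* 0.686, *Cmtm4* 0.654, *Rpp25l* 0.65) completed the 10, *Etv4* having the lowest values, and no member had another of the 10 among its 3 nearest genes except *Fgfr2*.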

How the data were processed

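Single-cell RNA-seq of forelimb cells had been made with 10x 3′ kits, and the authors deposited filtered matrices of UMI counts per gene and cell, aligned to a modified mm10 (GRCm38) genome with Cell Ranger 3.0.2 for the sorted libraries up to E16.5 proximal and 6.0.1 for E16.5 distal, per the file headers. The headers of the whole limb files name no version, and the study states a version for its single-cell data that differs from those in the other headers. From these counts, cells with at least 3000 UMIs and no more than 10% mitochondrial UMIs were kept. Each library (both whole limbs together, and both E16.5 segments together) was clustered with scanpy 1.11.5 (2000 variable genes, 50 components, 25 neighbours, Leiden resolution 1), and clusters were called X-like from 17 marker classes where at least 3 markers were raised (1 such cluster, whose leading genes another class shared, is called by its genes); the study's own cell labels were not used, so a difference from the study may come from the rebuilt names. The naming rule for mitotic-like clusters and the rule on shallow clusters were settled after the clusters were seen. Scrublet marked at most 0.126% of a library's cells and had thus not worked, so no doublets were removed, and leaving out the 5% of cells with the highest scores was tried instead. Counts were summed per library and class, and CPM is per 1000000 UMIs of that sum. Where 2 or more libraries allowed it, edgeR 4.0.16 (R 4.3.3) quasi-likelihood tests were fitted over all genes, at a Benjamini-Hochberg adjusted p of 0.05, with the library as a term for position; otherwise 2 libraries were compared by their ratio with an exact 95% interval, called at 2-fold among genes at 5 CPM or more, with no p-value. DESeq2 1.42.0, other filters and other cell sets were alternatives, and the scripts were tested on simulated data. Depths are given in the report; before shares of expressing cells were set side by side every cell was thinned to 3000 UMIs. All 10 members were read in every comparison and, in the stage steps, named where called; pathway genes by their count per role and up to 4 per role by size of change, and 3 genes of likeness each. The adaptors and kinases between E11.5 and E16.5 proximal are not reported here. The members and lists were chosen with earlier results of these data known.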

Additional observations from a re-analysis of the deposited data

How the results depend on the processing

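No paired analysis was possible because the sorted library's label gives no replicate number and nothing ties it to whole 1 or whole 2. The position comparison, within whole 1 and whole 2, was blocked by library; without that term *Spry4* lost its call (edgeR adjusted p = 0.192). Of the single values set beside the alternatives, counts over all genes among them, 519 were labelled the same and 247 moved. A tested member was the same where its call stayed, even if an uncalled ratio changed sign. A ratio between 2 libraries was the same within its main counting interval, whether or not its 2-fold call changed. In the tests 10 lost and 2 gained a call. Labelled reversed were 3: *Spry2* between distal and proximal cells when clusters stood in place of single cells (0.26, edgeR adjusted p = 0.0308, against -0.10), and *Dusp6* over all filtered cells, from E14.5 to E16.5 proximal (0.0297) and between E16.5 segments (-0.40). Leaving out whole 1 or whole 2 leaves no residual degrees of freedom in either test and gave values with no test. Of the counts of members, 114 kept within 1.5 times and 18 did not. In sorted cells against whole limb, 3 in place of 5 were higher without the filter on low counts, and between distal and proximal cells 5 in place of 3 were lower without thinning. From E11.5 to E13.5, 1 in place of 0 was higher after thinning, with a minimum of 5000 UMIs or without the 5% most doublet-like cells, and 2 among *Meis* cells alone. From E14.5 to E16.5 proximal, 1 in place of 2 was lower over all cells or with median-of-ratios scaling, and 0 with both segments summed, where 2 (*Fgfr3* and *Spry4*) in place of 1 were higher. From E11.5 to E16.5 proximal, 1 in place of 2 was higher over all cells or among *Meis* cells, and 0 with both segments, and 3 in place of 5 were lower with median-of-ratios scaling. Between segments, 2 in place of 1 were higher over all cells (*Fgfr1* and *Spry4*, not *Dusp6*) or among *Meis* cells, and 1 in place of 0 was lower with a 1 CPM minimum. The class with the highest level was the same for 45 of 80 pairs of gene and library when cells were named singly by 3 markers, 57 at resolution 2 and 66 at resolution 0.5. Over all genes, edgeR's counts for sorted against whole limb were 4056 higher and 4007 lower, against 1921 and 2050 with no filter, 2031 and 2875 by DESeq2 and 2067 and 2158 without cycling cells; for position they were 1915 and 1889, against 3111 and 2967 without thinning, 499 and 514 by DESeq2 and 1215 and 1154 without cycling cells. With single libraries per stage, depth limits *Fgf8* most, whose sums at E16.5 distal and in the whole limbs rest on 74 UMIs or fewer.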
